A study of Mus musculus with 64 samples.

Results

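Chemokine ligands are small secreted proteins that draw leukocytes along a concentration gradient by binding to G protein-coupled receptors on their surface. CCL ligands act mainly on monocytes, macrophages, eosinophils and lymphocytes, CXCL ligands on neutrophils or lymphocytes, and CX3CL1 and XCL1 stand in small classes of their own. In obese fat, macrophage recruitment is linked above all to CCL2 acting on CCR2. The ligands were taken here as every probe set annotated to a single gene whose symbol begins with Ccl or Cxcl and a digit, or is Cx3cl1 or Xcl1. This gave 51 probe sets of 33 genes among 45037 probe sets. A further 4 probe sets that match several genes, a chemokine ligand among them, were left out.

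Values came from 16 male F2 mice of a cross between TALLYHO/JngJ, an inbred strain with obesity, hyperlipidaemia and diabetes in males, and C57BL/6J (TALLYHO and C57BL6 in the labels). The mice were 24 weeks old and fed standard chow, 8 were from the upper and 8 from the lower tail of plasma triglyceride, and overtly diabetic mice had been left out. Liver, pancreas, muscle (soleus with gastrocnemius) and adipose tissue (inguinal, epididymal, retroperitoneal, perirenal and subscapular pads pooled) of each mouse were each put on 1 array, so that a replicate number names the same mouse in every tissue. Levels are the authors' log2 values, whose lower end, near 2.3, differs between tissues, so that the tissues were taken as normalized apart, and a level with a tissue mean of 4 or more is called clear. Tests were made within tissues, and an order of tissues is a description without a test. Because these are bulk extracts, fewer cells of a type and less RNA per cell cannot be told apart.

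1 array went against its label, and it bears on every liver value below. In the array labelled Liver low replicate 7, albumin (Alb) was 6.50 where the other 15 liver arrays lay between 15.62 and 15.82, and apolipoprotein A-I (Apoa1) was 5.42 against 15.82 to 16.19. The fat hormone adiponectin (Adipoq) was 14.23 there against at most 4.41 in the others, and muscle creatine kinase (Ckm) was 11.34 against at most 7.40. Its median correlation with the other liver arrays was 0.829, while that of the next lowest array was 0.989. Liver means are therefore given without it, and the triglyceride comparison in Liver with and without it. The adipose arrays kept Adipoq between 14.82 and 15.21, but Ckm ranged from 2.77 to 13.33 and Alb from 4.81 to 11.41 in them, so that muscle and liver transcripts varied between the adipose extracts.

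Of the 33 ligand genes, 21 were clear in at least 1 tissue. By the probe set with the highest mean over the 64 arrays, which stands for its gene, Adipose had 17 clear genes, Liver and Muscle 7 each and Pancreas 3. For 15 of the 21 the highest mean was in Adipose, and for 13 after quantile normalization over all 64 arrays. Without Liver low replicate 7 there were still 21 clear genes, 7 clear in Liver and 15 highest in Adipose. By probe set, 66.7% of the 30 clear ligand probe sets were highest in Adipose, beside 53.7% of all 23085 clear probe sets. 11 genes were clear in Adipose alone. Cxcl12, which holds haematopoietic cells in their niches, was the 1 gene that was clear in all 4 tissues by the deposited values. After quantile normalization over 64 arrays, Liver low replicate 7 included, Ccl6, Ccl9 and Ccl27a also had means of 4 or more in every tissue. Their Pancreas means were then 5.68, 4.81 and 4.64. Counts of genes clear in a tissue thus hold for the deposited values only.

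**Figure D1:**
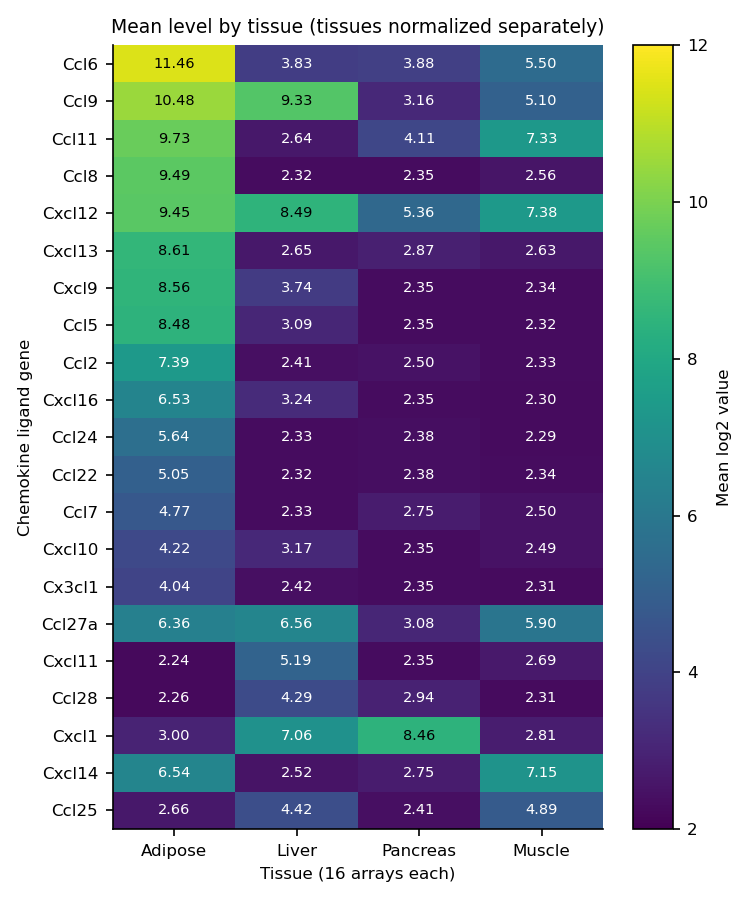
Mean log2 value over 16 arrays of each of the 21 clear chemokine ligand genes (rows) in each tissue (columns), by the probe set with the highest overall mean. The Liver column includes the array labelled Liver low replicate 7. Most genes are brightest in Adipose, Cxcl11 and Ccl28 in Liver, and Cxcl1 in Pancreas by this probe set. The tissues were taken as normalized apart, and Ccl7, Cxcl10 and Ccl25 have another top tissue after quantile normalization over all 64 arrays.

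Monocyte attractants gave some of the sharpest tissue differences. Ccl6 and Ccl9, rodent CCL ligands that bind CCR1, had adipose means of 11.46 ± 0.703 and 10.48 ± 1.06 (SD, n = 16). Ccl6 was 3.65 ± 0.282 in the 15 liver arrays without low replicate 7, close to the lower end, but Ccl9 was 9.50 ± 0.371 there. The liver thus held a clear level of Ccl9 without a clear level of Ccl6, although the genes are direct neighbours. Ccl2, the main ligand of CCR2, was 7.39 ± 1.90 in Adipose and at most 2.50 as a mean in the other tissues. Ccl7, another CCR2 ligand, was 4.77 ± 1.44 in Adipose, although after quantile normalization over all arrays its Pancreas mean (4.00) was above its Adipose mean (3.73). Ccl8 (9.49 ± 0.675) and Ccl24 (5.64 ± 0.366) were clear in Adipose alone, and Ccl24 is an eosinophil attractant. Ccl11, eotaxin, was 9.73 ± 0.436 in Adipose, 7.33 ± 0.479 in Muscle and 4.11 ± 0.405 in Pancreas, and it lay at the lower end in all 15 of those liver arrays (2.30).

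Several ligands for lymphocytes likewise had their highest mean in fat. Cxcl13, which guides B cells into follicles, was 8.61 ± 2.29 in Adipose. Ccl5, a ligand for T cells and monocytes, was 8.48 ± 2.25, and Ccl22, a dendritic cell product that attracts CCR4-bearing T cells, was 5.05 ± 1.63. The interferon-induced ligands of CXCR3 did not share a tissue. Cxcl9 (8.56 ± 0.462) and Cxcl10 (4.22 ± 0.606) had their highest mean in Adipose, Cxcl10 only before quantile normalization over all arrays (3.18 against 3.49 in Liver after it), whereas Cxcl11 was 5.29 ± 0.303 in Liver without low replicate 7 and 2.24 in Adipose. Cxcl16, a transmembrane ligand of CXCR6, was 6.53 ± 0.535 in Adipose. Cx3cl1, fractalkine, was at the edge with 4.04 ± 0.532, and Ccl12, at 3.85 ± 0.89 in Adipose, fell just short of a clear level.

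Of the remaining clear ligands, Cxcl12 was 9.45 ± 0.650 in Adipose, 8.62 ± 0.168 in the 15 liver arrays, 7.38 ± 0.267 in Muscle and 5.36 ± 0.396 in Pancreas by probe set 1448823_at, while by 1417574_at it was highest in Liver (9.44 ± 0.191). Cxcl14 by 1418456_a_at was 7.15 ± 0.412 in Muscle and 6.54 ± 0.869 in Adipose, with Muscle above Adipose in 13 of 16 mice. By 1418457_at it was 6.05 ± 0.467 and 5.87 ± 0.814, with Muscle above in 9 of 16 mice, an order within the spread. Ccl27a was 6.60 ± 0.373 in those 15 liver arrays, 6.36 ± 0.504 in Adipose and 5.90 ± 0.208 in Muscle, and Liver was above Adipose in 10 of 16 mice, so the order of these neighbours is within their spread. Ccl25, a thymus and gut ligand, was 4.89 ± 0.332 in Muscle and 4.43 ± 0.322 in those liver arrays, an order that quantile normalization over all arrays turned (4.58 and 4.62). Ccl28 was 4.31 ± 0.220 in Liver without low replicate 7.

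Cxcl1, a neutrophil attractant, depended on the probe set. By 1419209_at it was 7.85 ± 0.950 in the 15 liver arrays and 3.10 ± 0.0879 in Pancreas, and by 1457644_s_at it was 7.36 ± 0.880 and 8.46 ± 0.197. Both give a clear level in Liver, but the pancreatic level rests on the second alone. The other neutrophil ligands were not clear in any tissue, with Cxcl2 at 2.64 ± 0.747 and a highest value of 4.48 in Adipose. Ccl3, a macrophage product, was 2.33 ± 0.273 there. Ccl1, Ccl4, Ccl17, Ccl20, Cxcl3, Cxcl5, Cxcl15, Cxcl17 and Xcl1 were not clear in any tissue either, and an array value at the lower end does not show that a transcript is absent. For Ccl4 the Pancreas mean was 3.43 as deposited but 5.18 after quantile normalization over all 64 arrays.

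The study's own contrast, high against low triglyceride, gave no ligand call. In limma fits within each tissue, with p-values adjusted by the Benjamini-Hochberg method over all 45037 probe sets, 0 of 51 ligand probe sets had an adjusted p under 0.05 in Adipose, Liver, Pancreas or Muscle, and the share called among all probe sets was 0% in each. The lowest adjusted p of a ligand was 0.718, 0.784, 0.795 and 0.846. A plain F test without moderation also called 0. At an unadjusted p under 0.05, 5 of 51 ligand probe sets were counted in Adipose (4.62% of all probe sets), 1 in Liver (3.83%), 1 in Pancreas (2.23%) and 2 in Muscle (4.1%). Among clear probe sets these were 4 of 25 in Adipose (9.27% of all clear probe sets), 1 of 11 in Liver (9.05%), 1 of 3 in Pancreas (6.42%) and 2 of 9 in Muscle (9.52%). The 4 in Adipose were both Cxcl14 probe sets, Cx3cl1 and Ccl11, so that Cxcl14 was counted by more than 1 probe set. No clear ligand probe set had groups that did not overlap, where 0.0459%, 0.0605%, 0.0195% and 0.081% of all clear probe sets had. Without Liver low replicate 7 the liver count at an unadjusted p under 0.05 was 2 of 11 (13.6%). The median log2 difference of the 25 clear probe sets in Adipose was 0.21, with 16 above 0, beside −0.04 and 40.4% above 0 among all clear probe sets. Several genes enter this count by more than 1 probe set. Cxcl10, with a mean of 4.49 in high and 3.94 in low mice, is among the 16. It passed as clear only through the group where it is high.

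The lowest p in Adipose belonged to Cxcl14, a constitutively made ligand of epithelia and fat. By 1418457_at, its levels ran from 5.46 through a median of 6.38 to 7.32 in high and from 4.22 through 5.43 to 5.76 in low triglyceride mice. 7 of 8 high mice were above every low mouse, and the remaining high mouse lay within the low range. The log2 difference was 1.16 ± 0.281 (SE, n = 8 and 8), or 2.23-fold, with an unadjusted p of 0.000986 in the limma fit but an adjusted p of 0.718. The second probe set, 1418456_a_at, gave 0.96 ± 0.363 (limma adjusted p = 0.9), so both leaned the same way. In Muscle, the other tissue where Cxcl14 was clear, the difference was smaller by 1.01 ± 0.373 in limma on within-mouse differences (unadjusted p = 0.0166, adjusted p = 0.817).

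Cx3cl1 lay the other way. Its levels were 3.34, 3.73 and 4.02 (lowest, median and highest) in high and 3.84, 4.35 and 5.13 in low triglyceride mice, so that 5 of 8 high mice were below every low mouse. The log2 difference was −0.70 ± 0.199 (limma unadjusted p = 0.00329, adjusted p = 0.864) at a level only just called clear. Its mean was 4.39 in low but 3.69 in high mice, so it passed as clear only through the group where it is high. It is among the clear probe sets counted above at an unadjusted p under 0.05. The other Cx3cl1 probe sets were not clear in any tissue. Ccl11 ranged from 9.54 to 10.50 around a median of 9.93 in high and from 8.97 to 10.06 around 9.43 in low mice. The groups overlapped, with a difference of 0.52 ± 0.174 (limma adjusted p = 0.9).

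Ccl2 showed the widest mean difference, and its spread was as wide. High mice ran from 6.15 through 8.69 to 9.90, and low mice from 4.76 through 5.56 to 10.56. 5 of 8 low mice were below every high mouse, yet the highest of all 16 values, 10.56, was from low replicate 7. The log2 difference of 1.67 ± 0.864 had a 95% interval from −0.18 to 3.52 (limma adjusted p = 0.9). Other monocyte ligands had differences of 0.98 ± 0.690 (Ccl7), 0.58 ± 0.521 (Ccl9) and 0.40 ± 0.343 (Ccl6), and those of Cxcl9 (0.04 ± 0.235), Ccl3 (−0.07 ± 0.138) and Cxcl2 (−0.16 ± 0.379) were smaller than their standard errors; all 6 had a limma adjusted p of 0.9 or more. Ccl2, Ccl3, Ccl6, Ccl7 and Ccl9 had been singled out by the study from these same adipose arrays, by correlation with body and fat pad weights. Cxcl2 in Adipose and Cxcl9 in Liver had been singled out by association with genotype markers. Triglyceride was not the trait in these selections, but the arrays are the same, so the values here are not independent evidence. The study also measured Ccl3, Ccl6 and Ccl9 by quantitative PCR in adipose tissue of other mice, of the parental strains.

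**Figure D2:**
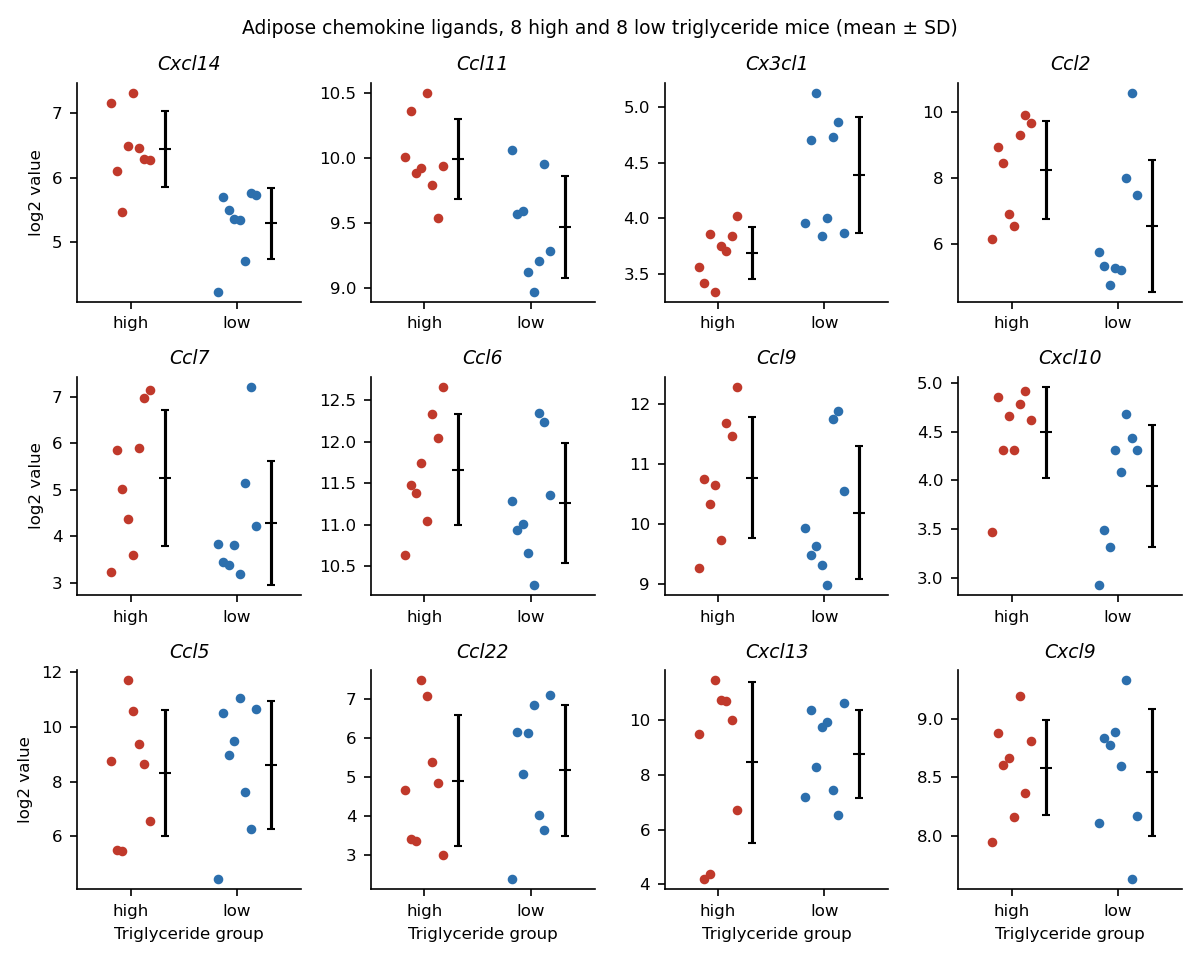
Adipose log2 values of 12 chemokine ligands in each high (red) and low (blue) triglyceride mouse, with the group mean and SD in black (n = 8 each; Cxcl14 by 1418457_at). The groups overlap in every panel, least in Cxcl14, where 7 of 8 high mice lie above all low mice, and the y axes differ between panels.

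Levels of marker lists stood beside these comparisons as follows, and their part in the differences was not tested. The mean level of 10 macrophage markers ran from 7.64 to 10.3 in high and from 7.50 to 10.3 in low adipose arrays, and all 10 had a higher mean in the high group, by a median log2 difference of 0.38. The 5 skeletal muscle markers ran from 3.95 to 12.4 in high and from 4.54 to 13.6 in low arrays, with lower means in the high group for all 5 (median −1.04). Of all clear probe sets, 40.4% had a higher mean in the high group. Markers of a list can vary together, so such counts are not independent results. A score of the macrophage markers, described below, did not differ detectably between the groups (exact permutation test, p = 0.324). The 5 hepatocyte markers ran from 4.86 to 10.4 and from 4.97 to 5.56, and the 6 fibroblast markers from 11.8 to 12.3 and from 11.3 to 12.1. No marker gene was called in the limma fit, with a lowest adjusted p of 0.864. At an unadjusted p under 0.05, the hepatocyte markers Alb (2.37), Serpina1c (2.66) and Ttr (3.37) had positive and Cyp2e1 (−1.01) a negative log2 difference, high minus low. The other markers at that level were Col3a1 (0.44) and Dpt (0.33) of fibroblasts, the adipocyte hormone Lep (1.03), the neutrophil marker S100a8 (2.40), Csf1r (0.33) of macrophages and the endothelial Tek (−0.33). Of the 4 measured neutrophil markers, S100a9, Csf3r and Mpo were not clear in Adipose, and neither was Serpina1c. S100a8 was among the genes closest to Ccl2 over the adipose arrays (r = 0.932).

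In Liver, the array that went against its label set much of the picture. Ccl28, a mucosal ligand, had the lowest p: its levels ran from 4.17 through 4.36 to 4.79 in high mice, and from 4.09 through 4.14 to 4.34 in low mice. 4 of 8 high mice were above every low mouse, and the difference of 0.26 ± 0.0872 (limma adjusted p = 0.784) was 0.25 ± 0.0933 without low replicate 7 (limma adjusted p = 0.802). For Ccl9 by 1417936_at the sign turned, from 0.06 ± 0.394 with that array to −0.30 ± 0.178 without it, while by 1448898_at it stayed positive (0.72 ± 0.539 and 0.31 ± 0.382). The sign also turned for Cxcl12 by 1448823_at, at 0.13 ± 0.272 and −0.14 ± 0.0806, and by 1417574_at the values were −0.04 ± 0.181 and −0.20 ± 0.0850. The array that went against its label was the lowest of the 16 for both genes. Cxcl1 by 1457644_s_at went from 0.85 ± 0.713 to 0.27 ± 0.460, Cxcl11 from 0.33 ± 0.238 to 0.14 ± 0.156 and Cxcl9 from −0.52 ± 0.385 to −0.31 ± 0.355. None of these was called in limma with either set of arrays.

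**Figure D3:**
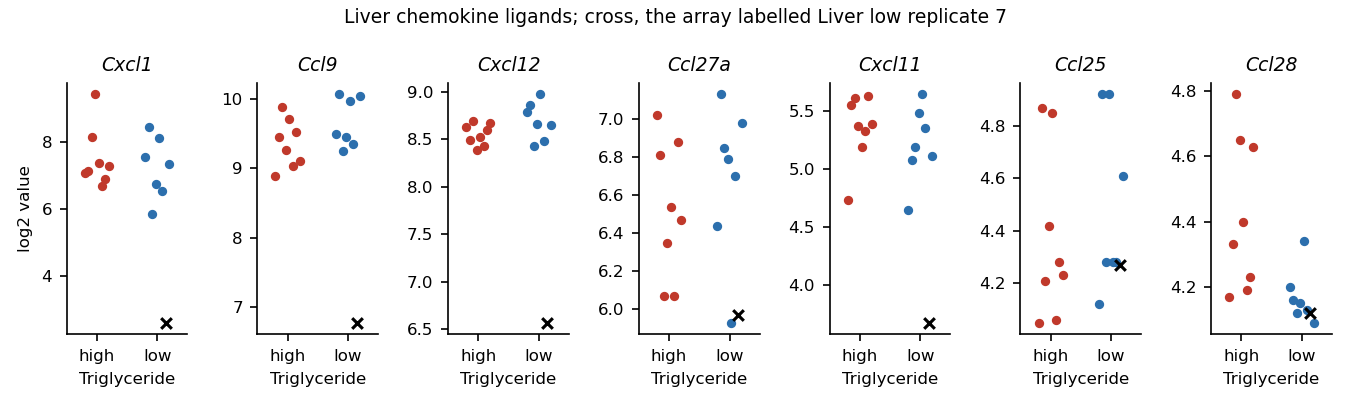
Liver log2 values of the 7 chemokine ligand genes with a mean of 4 or more, in high (red) and low (blue) triglyceride mice, with the array labelled Liver low replicate 7 as a black cross. That array is the lowest value for Cxcl1 (2.60), Ccl9 (6.77), Cxcl12 (6.57) and Cxcl11 (3.68), and the y axes differ between panels.

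In Pancreas and Muscle few ligands were clear. Pancreatic Cxcl1 by 1457644_s_at ran from 8.34 through 8.48 to 8.92 in high and from 8.13 through 8.36 to 8.45 in low mice, a difference of 0.23 ± 0.0803 (limma adjusted p = 0.795) with 4 of 8 high mice above all low mice. Muscle Cxcl12 by 1448823_at was 6.95, 7.23 and 7.49 (lowest, median, highest) in high and 7.14, 7.51 and 7.98 in low mice, a difference of −0.30 ± 0.111 (limma adjusted p = 0.846), and by 1417574_at the difference was 0.01 ± 0.133. Muscle Ccl25 was 4.16, 4.71 and 5.25 against 4.78, 5.16 and 5.30, a difference of −0.36 ± 0.141 at the same adjusted p. The groups overlapped in each case. Muscle high replicate 1 stood apart with 7.54 for Ccl6 and 7.11 for Ccl9; without it, the Ccl6 difference of 0.45 ± 0.313 became 0.19 and the Ccl9 difference of 0.26 ± 0.296 became −0.01. The mean of its 10 macrophage markers was 4.33 and that of its 5 hepatocyte markers 8.41, against at most 4.59 and 7.85 in the other muscle arrays.

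The contrast in Adipose was also set against that in each other tissue of the same mice. No ligand probe set was called with or without mouse low replicate 7, and over all 16 mice the counts were 5, 3 and 2 of 51 at an unadjusted p under 0.05 against Liver, Pancreas and Muscle, where 4.68%, 5.50% and 5.42% of all probe sets were counted. With all 64 arrays in 1 limma fit and the mouse as a random block, 0 ligand probe sets were called (0.00444% of all probe sets). Receptors and inducers gave 0 calls in each tissue too, for 22 chemokine receptors, 16 inducers and NF-kB response genes and the platelet ligands Pf4 and Ppbp. Among them Ccr2, the receptor of CCL2, differed by 0.17 ± 0.0619 in Adipose (limma adjusted p = 0.9) and by −0.22 ± 0.0849 in Pancreas (limma adjusted p = 0.795). In Adipose 12 of the receptors were clear, 9 of them with a higher mean in the high group, beside 40.4% of all clear probe sets. The median log2 difference of these receptors was 0.16, and genes that vary together are not independent results.

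Several ligands varied widely over the adipose arrays, in both triglyceride groups. The median SD of the 25 clear ligand probe sets over the 16 adipose arrays was 0.703, beside 0.346 for all 19594 clear probe sets, and 8 of the 25 (32%) had an SD of 1 or more, beside 5.43% of all. Cxcl13 (from 4.19 to 11.45) and Ccl5 (from 4.44 to 11.70) each spanned a 153-fold range. Ccl2 spanned 55.8-fold, Ccl22 34.1-fold, Ccl7 16.2-fold and Ccl9 9.88-fold. At the other end, Ccl11 spanned 2.89-fold and Ccl24 2.37-fold.

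Most of these ligands, and Ccl6 with its smaller 5.26-fold span, fell into separate sets. Over the 16 mice, Ccl2, Ccl7, Ccl6 and Ccl9 formed the first: r was 0.99 between Ccl6 and Ccl9, 0.95 between Ccl2 and Ccl7 and 0.84 between Ccl2 and Ccl6, the weakest of their pairs. Ccl5, Ccl22 and Cxcl13 formed the second, with r of 0.97 for Ccl5 and Ccl22, 0.89 for Ccl5 and Cxcl13 and 0.84 for Ccl22 and Cxcl13. Spearman's rho was 0.85 or more in each of these pairs, permutation p was at most 0.0001 for r and 8e-05 for rho, and the p adjusted over all clear probe sets was at most 0.00551. Without the 2 mice farthest from the median, r was 0.81 or more. Ranks by Pearson r among all clear probe sets differed between the pairs. With Ccl6, Ccl9 ranked 1, and with Ccl2, Ccl7 ranked 2. With Ccl2, however, Ccl6 ranked 240, and with Cxcl13, Ccl22 ranked 438. Many probe sets outside the family thus ran as closely with these ligands, and the sets are not particular to chemokine ligands. Between a gene of one set and a gene of the other, r ran from −0.50 to −0.25. This pattern was noticed in the data, over 136 pairs of 17 genes.

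**Figure D4:**
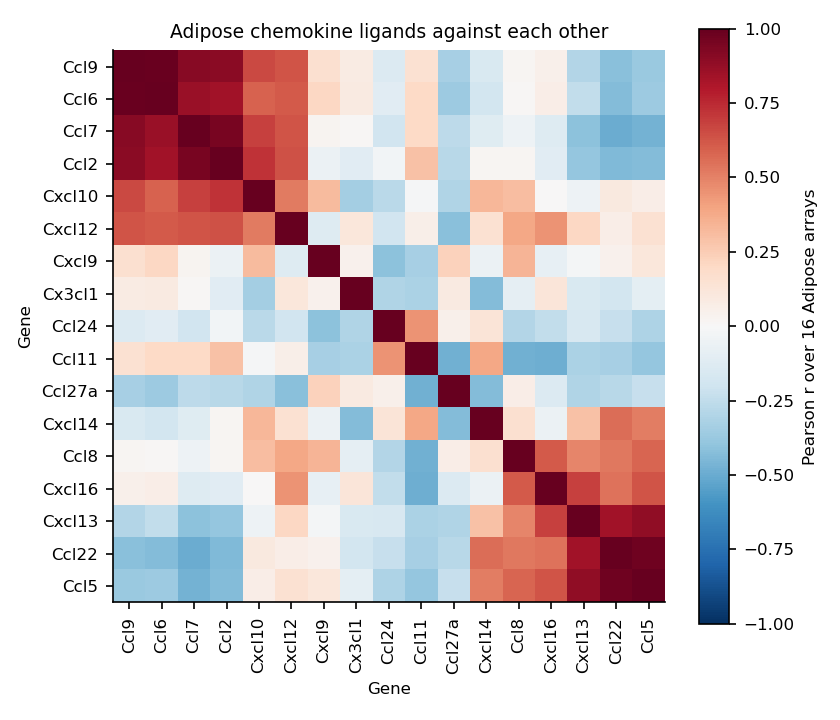
Pearson correlation over the 16 adipose arrays between the 17 chemokine ligand genes that are clear in Adipose (red, positive; blue, negative). Ccl9, Ccl6, Ccl7 and Ccl2 form 1 red block (r from 0.84 to 0.99) and Cxcl13, Ccl22 and Ccl5 another (r from 0.84 to 0.97), with genes ordered after their values were seen.

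Position on the chromosome and the sets overlapped in part. In the RefSeq annotation of GRCm38.p6, Ccl2, Ccl7, Ccl11, Ccl12, Ccl8 and Ccl1 follow one another among the protein-coding genes of chromosome 11, and so do Ccl5, Ccl9, Ccl6, Ccl3 and Ccl4 farther along. The first set thus takes members from both runs, while Ccl5, next to Ccl9, belonged to the second set (r = −0.37, rho −0.41, permutation p = 0.159 and 0.112). Ccl11, next to Ccl7, had an r of 0.20 with it (rho 0.18, permutation p = 0.454 and 0.5). On chromosome 8, Cx3cl1 lies between Ccl22 and Ccl17, and its r with Ccl22 was −0.18 (rho −0.24, permutation p = 0.503 and 0.361). Upstream sequences of members of the sets that the RefSeq table holds are shown, with Cxcl10 for its NF-kB matches. Each runs 5′ to 3′ over the 250 bases before the start site (GRCm38.p6), with capitals where the NF-kB consensus matches on either strand.
Ccl9 (chr11:83578637-83578886, - strand): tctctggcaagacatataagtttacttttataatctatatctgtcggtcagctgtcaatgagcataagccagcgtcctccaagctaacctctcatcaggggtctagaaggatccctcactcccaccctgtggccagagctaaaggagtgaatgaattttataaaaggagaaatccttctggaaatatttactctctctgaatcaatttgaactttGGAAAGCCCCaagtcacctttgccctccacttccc
Ccl6 (chr11:83593088-83593337, - strand): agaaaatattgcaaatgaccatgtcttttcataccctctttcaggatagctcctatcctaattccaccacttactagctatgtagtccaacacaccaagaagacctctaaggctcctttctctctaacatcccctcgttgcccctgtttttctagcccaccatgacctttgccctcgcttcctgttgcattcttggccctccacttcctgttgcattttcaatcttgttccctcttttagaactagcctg
Cxcl10 (chr5:92348890-92349139, - strand): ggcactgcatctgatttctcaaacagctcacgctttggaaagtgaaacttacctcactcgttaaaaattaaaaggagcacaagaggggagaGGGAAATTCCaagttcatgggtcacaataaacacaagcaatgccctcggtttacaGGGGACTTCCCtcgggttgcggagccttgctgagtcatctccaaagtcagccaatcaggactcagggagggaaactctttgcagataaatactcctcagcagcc
Cxcl13 (chr5:95956689-95956938, + strand): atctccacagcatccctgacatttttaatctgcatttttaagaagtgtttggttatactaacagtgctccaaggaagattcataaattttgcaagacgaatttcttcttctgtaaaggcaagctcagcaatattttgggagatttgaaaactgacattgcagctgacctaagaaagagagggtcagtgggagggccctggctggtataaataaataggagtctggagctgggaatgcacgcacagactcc
Ccl22 (chr8:94745434-94745683, + strand): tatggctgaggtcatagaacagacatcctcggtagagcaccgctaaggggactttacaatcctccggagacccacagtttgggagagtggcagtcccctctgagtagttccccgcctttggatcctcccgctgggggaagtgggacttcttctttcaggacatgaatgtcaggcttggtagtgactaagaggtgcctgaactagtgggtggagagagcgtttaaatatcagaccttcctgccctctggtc
The NF-kB consensus was found in 3 of the 14 clear ligand genes with an upstream sequence in the table (Cxcl1, Cxcl10 and Ccl9), beside 7.25% of all 32851 sequences of that length. In Cxcl10 the matches began 159, 104 and 103 bases before the start site, the last pair overlapping, and in Ccl9 the match began 35 bases before it. GAGGAA, the core site of PU.1, a macrophage and B cell factor, was found on either strand in 3 of the 14 (Ccl27a, Cx3cl1 and Ccl8), beside 23.3% of all, and TATAAA in 6 of the 14, beside 12.4%. TTGCNNAA, a pair of CEBP half-sites, was found in 2 of the 14, beside 9.56%. Ligands are counted by gene and the share of all by sequence. Ccl27a and Ccl25 have further sequences and so more places to match, and the shares are not strictly alike. A match is a run of letters and not a bound site.

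The first set followed macrophage markers. A score, the mean standardized value of Cd68, Adgre1, Csf1r, Cd14, Itgax, Lyz2, Mpeg1, Clec7a, Trem2 and C1qa, was related to each clear probe set over the 16 mice. Over 50 relations of ligand probe sets to this score and the next, 7 of 25 ligand probe sets were called here at an adjusted p under 0.05, all positive, beside 11.4% of all 19594 clear probe sets (7.18% in the positive direction). Ccl9 had r = 0.96 (rho 0.94) by 1417936_at, Ccl6 r = 0.94 (rho 0.94) by 1417266_at, Ccl7 r = 0.88 (rho 0.87) and Ccl2 r = 0.87 (rho 0.87), with permutation p of 1e-05 (the smallest that 100000 resamples can give), 1e-05, 5e-05 and 5e-05 for r, of 1e-05, 1e-05, 3e-05 and 6e-05 for rho, and adjusted p of 3.39e-06, 2.02e-05, 0.000722 and 0.00094. These relations held within the 8 high (r from 0.88 to 0.94) and within the 8 low mice (0.87 to 0.97), and without the 2 mice farthest from the median score (0.91 to 0.95).

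The scores themselves had a gap. 5 mice, 3 high and 2 low, lay at 0.96 or more, and the other 11 at −0.01 or less. Within those 11, r was 0.88 for Ccl9, 0.81 for Ccl6, 0.79 for Ccl7 and 0.86 for Ccl2. Cxcl12 by 1448823_at (r = 0.71, rho 0.61, permutation p = 0.00237 and 0.0129, adjusted p = 0.0269) was different: its r was 0.06 among the 11, so its relation rests on the 5 mice, and by 1417574_at r was 0.05 over all 16. Cxcl10 (r = 0.63, rho 0.74, permutation p = 0.00854 and 0.00151, adjusted p = 0.0651) and Cxcl1 by 1419209_at (r = 0.65, rho 0.54, permutation p = 0.00663 and 0.0314, adjusted p = 0.0548) were not called. The mean score was 0.22 ± 0.848 in high and −0.22 ± 0.974 in low mice (exact permutation test, two-sided, p = 0.324).

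The second set followed lymphocyte markers. With a score from Cd3d, Cd3e, Cd3g, Cd2, Cd8a and Cd4 of T cells and Cd79a, Cd79b, Ms4a1 and Ighm of B cells, 4 of 25 ligand probe sets were called, all positive, beside 8.07% of clear probe sets (7.42% in the positive direction). They were Ccl5 (r = 0.95, rho 0.90, permutation p = 1e-05 for both, adjusted p = 9.12e-06), Ccl22 (r = 0.93, rho 0.93, permutation p = 1e-05 for both, adjusted p = 4.18e-05) and both probe sets of Cxcl13 (r = 0.88, rho 0.94, permutation p = 2e-05 and 1e-05, adjusted p = 0.00066 by 1417851_at). Within the high mice r ran from 0.93 to 0.97 and within the low mice from 0.93 to 0.96 for Ccl5, Ccl22 and this probe set of Cxcl13, and without the 2 farthest mice from 0.92 to 0.94. Ccl8 (r = 0.58, rho 0.54, permutation p = 0.0186 and 0.0343, adjusted p = 0.122) and Cxcl16 (r = 0.54, rho 0.55, permutation p = 0.0265 and 0.0308, adjusted p = 0.171) were not called.

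**Figure D5:**
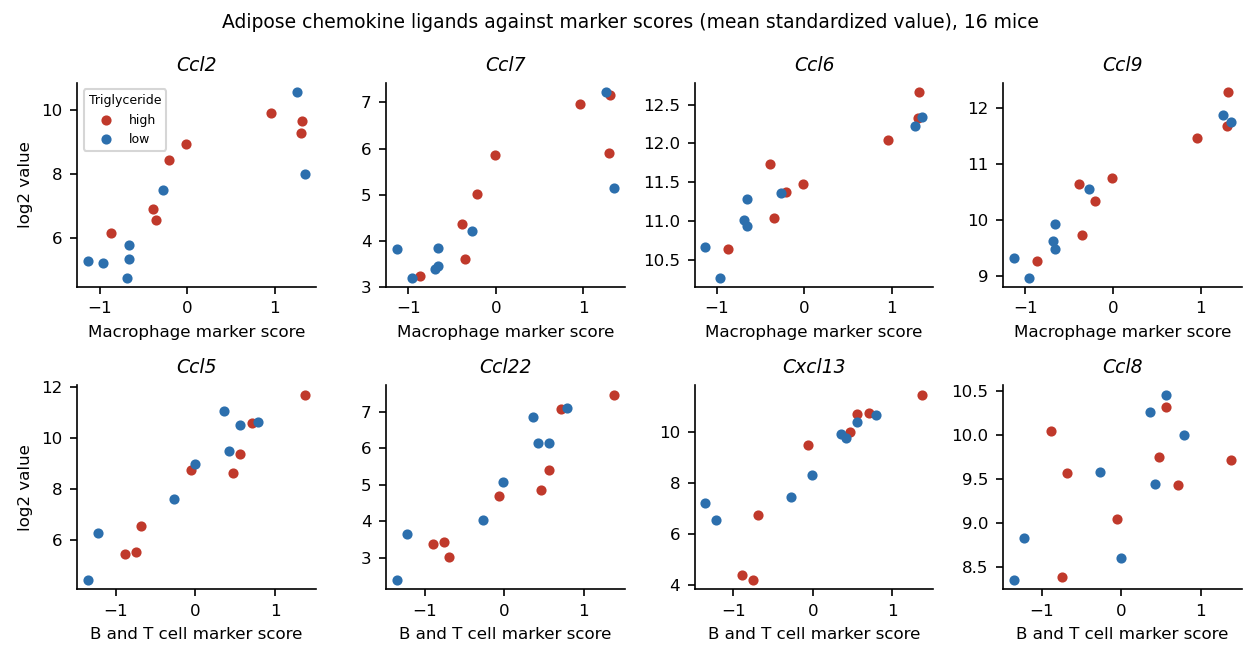
Adipose log2 values of 8 chemokine ligands in 16 mice (red, high; blue, low triglyceride) against the macrophage score (upper row) and the B and T cell score (lower row), each the mean standardized value of 10 marker genes. Ccl2, Ccl7, Ccl6 and Ccl9 climb with the first score (r from 0.87 to 0.96) and Ccl5, Ccl22 and Cxcl13 with the second (r from 0.88 to 0.95), while Ccl8 scatters more (r = 0.58).

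No relation between the marker scores was detected (r = −0.25, rho −0.18, permutation p = 0.353 and 0.498; r = −0.14 without the 2 farthest mice). The lymphocyte score was 0.09 ± 0.819 in high and −0.09 ± 0.808 in low mice (exact permutation test, two-sided, p = 0.656). Whether the ligands come from the cells the markers name was not tested. The pooled fat pads can hold lymph nodes, and how much node tissue each extract held was not tested either. For Cxcl14, Ccl11 and Cx3cl1, the ligands with the lowest p between triglyceride groups, r with the macrophage score was 0.07 (1418457_at), 0.11 and 0.18, with rho of 0.20, 0.15 and 0.11 and permutation p of 0.802, 0.696 and 0.496 for r and 0.457, 0.578 and 0.692 for rho. Within the high and the low mice r was −0.32 and −0.05 for this probe set of Cxcl14, −0.50 and 0.23 for Ccl11, and 0.58 and 0.50 for Cx3cl1, whose r was 0.50 with both groups centred. By 1418456_a_at Cxcl14 had r = −0.16 over all 16 and −0.38 centred.

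Genes outside the family that ran closest to each ligand were read from all clear probe sets. For Ccl9 they were Gusb, Alox5ap and C3ar1 (r of 0.966, 0.964 and 0.959), for Ccl6 Fcgr3, Alox5ap and Lyz1 (0.954, 0.946 and 0.937), and for Ccl2 Rab29, Tmem167 and Tubb2a (0.956, 0.950 and 0.944). Alox5ap serves leukotriene synthesis, and Fcgr3 and C3ar1 are receptors of myeloid cells. For Ccl5 they were Epsti1, Ltb and Gimap3 (0.986, 0.979 and 0.976), and for Cxcl13 P2ry10, Gimap4 and Stk17b (0.977, 0.969 and 0.967), with the B cell marker Ms4a1 at 0.963. Ltb encodes lymphotoxin beta, a lymphocyte cytokine. For Cxcl14 they were Hoxc10, Pi16 and Sart1 (0.827, 0.807 and 0.806). Adjusted p was at most 0.00026 for the named neighbours of the other ligands but 0.327 or more for those of Cxcl14.

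Ligands and their receptors were matched in 12 pairs, chosen after the sets had been seen, and 7 could be related over the 16 adipose arrays. Cxcl13 ran with Cxcr5, its receptor on B cells (r = 0.80, rho 0.93, permutation p = 0.00021 and 1e-05, adjusted p = 0.00475, r = 0.92 without the 2 farthest mice). Ccl9 ran with Ccr1 (r = 0.67, rho 0.70, permutation p = 0.00237 and 0.00329, adjusted p = 0.0458, 0.59 without the 2 farthest). Many other clear probe sets ran as closely with these ligands. With Cxcl13, Ccl22 ranked 438 by Pearson r (r = 0.84, adjusted p = 0.00204) and Cxcl16 ranked 1825 (r = 0.68, adjusted p = 0.0356). The r of Cxcr5 lay between these values. With Ccl9, Cxcl10 ranked 1207 (r = 0.66, adjusted p = 0.0539). A call is thus not particular to a receptor. Ccl2 and Ccr2 (r = 0.37, rho 0.38, permutation p = 0.164 and 0.143, adjusted p = 0.355, 0.55 without the 2 farthest) and Cxcl12 and Cxcr4 (r = 0.59, rho 0.55, permutation p = 0.015 and 0.0277, adjusted p = 0.191, 0.58 without the 2 farthest) were not called. Nor were Cx3cl1 and Cx3cr1 (r = 0.35, rho 0.16, permutation p = 0.191 and 0.558, adjusted p = 0.813, 0.21 without the 2 farthest), Cxcl9 and Cxcr3 (r = 0.25, rho 0.11, permutation p = 0.357 and 0.676, adjusted p = 1.0, 0.13) and Cxcl12 and its scavenging receptor Ackr3 (r = −0.07, rho 0.00, permutation p = 0.794 and 0.996, adjusted p = 0.943, −0.15). Ccr3, Ccr4, Ccr8 and Ccr10 lay at the lower end on every adipose array (2.24), so no relation could be had for them, and Cxcr6 was below the clear level (3.76).

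A mouse with a high ligand level in 1 tissue was not shown to have it in another. Over the 6 pairs of tissues, 0 ligand probe sets were called in correlations over the 16 mice, beside 0.752% (Adipose and Liver), 0.350% (Adipose and Pancreas), 0.274% (Adipose and Muscle), 0.222% (Liver and Pancreas), 0.117% (Liver and Muscle) and 0.0465% (Pancreas and Muscle) of all probe sets clear in both. In that order, only 6, 2, 8, 2, 5 and 2 ligand probe sets were clear in both tissues. With so few, a count of 0 does not set the ligands apart from all probe sets. Over all 16 mice the highest were Cxcl12 by 1417574_at in Adipose and Muscle (r = 0.52, rho 0.40, permutation p = 0.0413 and 0.123, adjusted p = 0.615, 0.15 without the 2 farthest mice), Cxcl1 in Liver and Pancreas (r = 0.39, rho 0.47, adjusted p = 1.0, permutation p = 0.138 and 0.065, 0.31 without them and 0.45 without mouse low replicate 7) and Ccl27a in Adipose and Muscle (r = 0.36, rho 0.47, adjusted p = 0.811, permutation p = 0.164 and 0.065, 0.15 without them). Without mouse low replicate 7, Cxcl12 by 1417574_at in Adipose and Liver went from −0.05 (rho 0.31, permutation p = 0.858 and 0.249) to 0.48, and by 1448823_at from −0.47 (rho −0.37, permutation p = 0.0439 and 0.165, adjusted p = 0.51) to −0.22, and still no ligand was called. Cxcl14 in Adipose and Muscle had r of 0.21 by 1418456_a_at and 0.09 by 1418457_at. Ccl9 was clear in Adipose and Liver, and by 1417936_at its r was −0.47 over the 16 mice (rho −0.40, permutation p = 0.0468 and 0.124, adjusted p = 0.517), −0.36 without mouse low replicate 7 and −0.45 without the 2 farthest mice. By 1448898_at, also clear in both tissues, r was −0.12 (rho −0.07, permutation p = 0.669 and 0.807, adjusted p = 0.935). It was 0.23 without mouse low replicate 7 and 0.07 without the 2 farthest mice, so the probe sets differed.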

How the data were processed

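Expression was measured on 64 Affymetrix mouse arrays, 16 in each of 4 tissues. The authors deposited log2 values, and the submitters' processing notes name GCRMA. The lower end of the values differs between tissues, so each tissue was taken as normalized apart. Depth has no meaning for arrays, and the number of arrays limits the precision. The 64 control probe sets were left out, and of the remaining 45037 probe sets 34945 had 1 gene in the platform annotation, 932 several and 9160 none. High and low triglyceride mice were compared in each tissue with limma 3.58.1 in R 4.3.3, without covariates, with Benjamini-Hochberg adjustment over all probe sets and a threshold of 0.05. Correlations used numpy 2.4.6 and scipy 1.17.1 with 100000 permutations, and their adjusted p covers all probe sets with a mean of 4 or more. The fit and the correlation step were tested on simulated data. Named were all clear ligands, in each tissue those with the lowest p, the widest spread in Adipose, those the study names and the highest correlations between tissues. Members and lists were chosen with earlier results of these data known. Alternatives were another normalization, filters, a plain F test, array weights, the replicate block and leaving out each array. Upstream sequences and gene order are from RefSeq GRCm38.p6, and 14 of 21 clear genes had a sequence. A table of traits and genotypes whose animals could not be tied to the arrays was not used.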

Additional observations from a re-analysis of the deposited data

Results flagged for a closer look

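In 68 groups of 8 arrays (a clear ligand gene in 1 tissue and triglyceride group), Dixon's test at 95% picked out 11 single arrays that lay far from the rest, and chance alone gives about 1 in 20 groups. The array labelled Liver low replicate 7 accounted for 3 of the 7 liver low groups: Ccl9 was 6.77 there with the next array at 9.25, Cxcl1 was 2.60 with the next at 5.84, and Cxcl12 was 6.57 with the next at 8.43. Its liver markers are low, as given above. Ccl28 was 4.34 in Liver low replicate 5, with the next array at 4.20.

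In Adipose, Cxcl12 was 10.50 in low replicate 7 (next 9.40), Cxcl10 was 3.47 in high replicate 1 (next 4.31) and Cxcl16 was 4.98 in high replicate 2 (next 6.22). In Pancreas, Cxcl12 was 6.42 in high replicate 2 (next 5.48) and 6.07 in low replicate 5 (next 5.51). In Muscle, Ccl9 was 7.11 in high replicate 1 (next 5.55) and 5.49 in low replicate 6 (next 5.11). What set these arrays apart was not tested.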

How the results depend on the processing

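The count of ligand probe sets called between triglyceride groups was 0 in each tissue under every alternative run: quantile normalization, the filter at a mean of 4, the plain F test, array weights, 1 probe set per gene, the replicate block and each array left out. Replicate numbers pair no samples here, since a number names different mice in the high and low groups, and correlations of same-numbered deviations ran from −0.301 to 0.281 in Adipose; with the replicate block 0 ligand probe sets were called, and the adjusted p of Cxcl14 was 0.692. Calls with the macrophage score were 7, and 6 to 8 under the alternatives, and those with the lymphocyte score stayed at 4. Genes highest in Adipose numbered 15, and 13 after quantile normalization over all arrays, 16 with a mean of 3 and 12 with a mean of 5 as the clear level; without Liver low replicate 7, an alternative chosen after seeing the data, it was 15.

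Of 633 alternative values of 29 single differences, 30 changed sign, none of them of a called difference. With array weights these were Ccl3 (0.01) and Cxcl2 (0.10) in Adipose, Ccl9 (−0.32) and Cxcl12 (−0.16) in Liver and Ccl11 (0.078) in Pancreas. With each array left out in turn, the log2 difference in Adipose ran from −0.74 to 0.30 for Cxcl13, −0.89 to 0.11 for Ccl5, −0.66 to 0.009 for Ccl22, −0.092 to 0.15 for Cxcl9, −0.35 to 0.10 for Cxcl2 and −0.11 to 0.062 for Ccl3. In Liver it ran from −0.30 to 0.17 for Ccl9, −0.14 to 0.21 for Cxcl12 and −0.17 to 0.001 for Ccl27a, in Pancreas from −0.16 to 0.073 for Ccl11 and −0.23 to 0.029 for Cxcl12, and in Muscle from −0.01 to 0.34 for Ccl9. The cause of these changes was not tested, other than that Ccl9 and Cxcl12 in Liver turned without low replicate 7.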
